A study of Mus musculus with 12 samples.

Results

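The fatty acid oxidation genes described here are 32 genes of mitochondrial and peroxisomal fatty acid breakdown, taken by symbol from a table of 48321 rows, and all 32 were found. By textbook location 19 of them encode mitochondrial proteins, 8 encode peroxisomal proteins, and 5 (Crat, Eci2, Acad11, Acsl1 and Acsl5) encode proteins found in both organelles or in other membranes as well. They were measured by RNAseq in immortalized murine brown adipocytes, 12 libraries in all, 3 in each of 4 groups. In the tSema4B cells 17 of the 31 members that could be tested were lower than in vector cells without stimulation (7.39% of all genes tested) and 16 were lower after norepinephrine (NE; 11.2%), and 14 were lower in both conditions (4.93%).

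Every group came from wild-type brown preadipocytes of a newborn mouse, immortalized with SV40 large T antigen, then given lentivirus with pLEX as empty vector or pLEX coding for Flag-tagged tSema4B, a truncated semaphorin 4B that stands for the form released by the protease ADAM17, and selected with puromycin. All cells were taken through the same differentiation for 8 days, in a medium that contained the PPARγ agonist rosiglitazone during induction, and then kept for 6 h in serum-free medium with albumin, either without further addition (vector and tSema4B, unstimulated) or with 2 μM NE (vector NE and tSema4B NE). Each construct is represented by a single stable line, and the 3 libraries within a group are technical replicates according to the labels. The p-values therefore measure the spread between these libraries and compare these lines, not independent transductions. Reads counted on genes lay between 2841941 and 3682634 in the unstimulated vector libraries, between 2000780 and 2541747 in the unstimulated tSema4B libraries, between 4739777 and 5409583 in vector NE and between 2307190 and 3144946 in tSema4B NE. Normalized counts of Sema4b, which include the transgene, ranged from 65472 to 124008 in the vector libraries and from 208760 to 316850 in the tSema4B libraries. The lines did not overlap, but Sema4b also took 2.04 to 4.02% of all reads in the libraries labelled empty vector, against 7.01 to 10.2% in the tSema4B libraries. These counts do not tell the transgene from the cell's own transcript, and where the reads in the vector libraries come from was not tested. Genes encoded in the mitochondrial DNA took 13.4 to 16.7% of the reads in vector cells and 6.91 to 7.89% in tSema4B cells.

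Fatty acids are activated to acyl-CoA by long-chain acyl-CoA synthetases and enter mitochondria through the carnitine shuttle, in which CPT1 makes acylcarnitine at the outer membrane and CPT2 turns it back into acyl-CoA inside. Each round of β-oxidation then uses an acyl-CoA dehydrogenase that passes electrons to the electron transfer flavoprotein, an enoyl-CoA hydratase, a 3-hydroxyacyl-CoA dehydrogenase and a thiolase. Peroxisomes shorten very long, branched and dicarboxylic acids with their own set of enzymes and export medium-chain products as carnitine esters. Brown adipocytes oxidize fatty acids to fuel heat production, and many of these genes are textbook targets of the PPAR family, nuclear receptors that bind DNA as partners of RXR.

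For the genes below, the sequence upstream of the gene start was read from RefSeq (build GRCm38.p6), which held 27 of the 32 members. Distances are from the RefSeq start. For Cpt1a this start lies downstream of the start at 3322334 in the gene annotation (GENCODE) used for gene positions. The Cpt1a stretch is therefore within the gene as that annotation draws it. For Echs1 the RefSeq start also lies downstream of the GENCODE start, at 140116476, and the Echs1 stretch was cut to end just before that GENCODE start. The 6-base nuclear receptor half-site AGGTCA, searched on both strands in the 250 bases upstream of each start, was found for 4 of the 27 members (Echs1, Acadvl, Cpt1a and Acadm) and in 14.0% of the 32851 windows of this length in all genes. The match began 83 bases upstream of the Echs1 start, 87 bases upstream of the Acadvl start, 94 bases upstream of the Cpt1a start and 249 bases upstream of the Acadm start. The stretches around it are shown because Echs1, Acadvl and Acadm were lower in unstimulated tSema4B cells and Cpt1a was not. Capitals mark the half-site, written TGACCT where it runs against the gene, and each sequence is given 5′ to 3′ on the strand of the gene.
Echs1 (chr7:140116477-140116529, minus strand): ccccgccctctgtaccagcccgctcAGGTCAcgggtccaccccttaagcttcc
Acadvl (chr11:70015485-70015540, minus strand): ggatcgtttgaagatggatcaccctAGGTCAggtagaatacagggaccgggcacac
Acadm (chr3:153944862-153944893, minus strand): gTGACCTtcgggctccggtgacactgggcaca
Cpt1a (chr19:3323182-3323237, plus strand): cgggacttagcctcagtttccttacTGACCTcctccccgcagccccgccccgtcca

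Longer motifs that contain or resemble the half-site were searched in the same windows. The direct repeat of AGGTCA with any 1 base between the copies, the textbook PPAR and RXR element, was in 0 of the 27 members and in 0.0335% of all windows. The extended half-site TCAAGGTCA of the estrogen-related receptors, which holds an AGGTCA, was in 0 members and in 0.387% of all windows. The cAMP response element TGACGTCA was in 0 members and in 1.55% of all windows. These counts say only which letters these windows hold. Windows of 2 members are shown in full, Acaa1b because it had the lowest value against vector of all members and Etfa because it had the smallest p-value of the mitochondrial members in both conditions, and no base is in capitals because neither holds a motif that was searched.
Acaa1b (chr9:119157094-119157343, minus strand): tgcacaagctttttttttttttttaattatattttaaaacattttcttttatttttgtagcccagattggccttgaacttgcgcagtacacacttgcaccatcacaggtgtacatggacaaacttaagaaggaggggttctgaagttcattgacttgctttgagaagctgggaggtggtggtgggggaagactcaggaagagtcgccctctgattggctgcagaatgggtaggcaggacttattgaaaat
Etfa (chr9:55512244-55512493, minus strand): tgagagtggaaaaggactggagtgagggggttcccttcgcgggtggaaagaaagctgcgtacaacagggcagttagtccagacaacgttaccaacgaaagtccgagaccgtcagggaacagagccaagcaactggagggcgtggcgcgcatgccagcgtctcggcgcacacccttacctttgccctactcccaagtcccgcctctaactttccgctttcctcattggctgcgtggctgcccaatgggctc

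Hadha and Hadhb, the α and β subunits of the mitochondrial trifunctional protein, lie head to head on chromosome 5, with Hadha on the minus strand and Hadhb on the plus strand. The 85 bases between the annotated gene starts are shown on the plus strand because both genes were lower in tSema4B cells.
Hadha to Hadhb (chr5:30155163-30155247): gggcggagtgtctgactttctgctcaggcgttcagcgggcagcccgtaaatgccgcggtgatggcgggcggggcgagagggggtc

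The comparison of tSema4B with vector asks how the truncated semaphorin changes the expression of genes that brown adipocytes need for thermogenesis. Values are normalized counts, meaning reads per gene divided by the size factor of the library, and a member passed at an adjusted p of 0.05 or less in limma with Benjamini-Hochberg adjustment over 11998 genes. Without stimulation 17 of 31 members were lower and 1 was higher, where 7.39% of all genes tested were lower and 5.64% were higher. After NE 16 of 31 were lower and 2 were higher, where 11.2% of all genes were lower and 9.79% were higher. The median log2 fold change of the members was -0.43 in each condition, against -0.0025 over all genes without stimulation and -0.010 after NE. The study counted changed genes at a change of at least 2-fold. Its enrichment analysis, which listed fatty acid beta oxidation among the repressed processes, used all changed genes that passed at 0.05. The 2-fold size was reached by 3 of the lower members without stimulation (Acaa1b, Ehhadh and Acsl1), where 2.71% of all genes passed both thresholds downwards and 1.11% upwards. After NE 5 reached it (these 3, Eci1 and Etfa), where 3.73% passed downwards and 2.03% upwards. All tSema4B libraries lay below all vector libraries for 19 members without stimulation (15.1% of all genes) and for 18 after NE (19.8%), and all lay above for 1 and for 3 (14.2% and 17.9%).

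**Figure D1:**
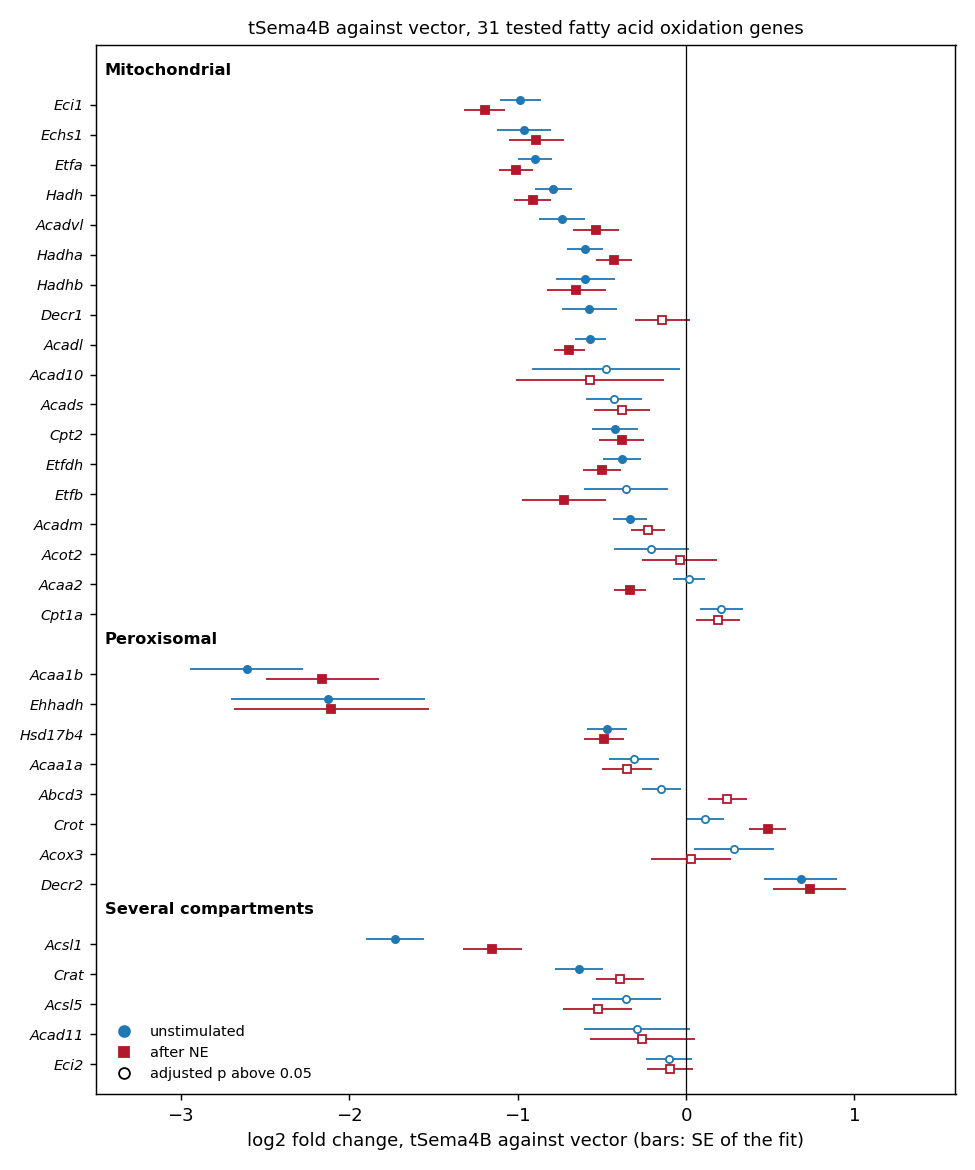
Log2 fold change of each tested member in tSema4B against vector cells (x axis), without stimulation (circles) and after NE (squares), grouped by organelle, with the SE of the fit as bars and open symbols where the adjusted p was above 0.05. Of the 18 mitochondrial members tested, 16 lie left of 0 without stimulation and 17 after NE, while the 8 peroxisomal members run from Acaa1b at -2.61 (unstimulated) to Decr2 at 0.73 (after NE).

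Acsl1, the main long-chain acyl-CoA synthetase of fat cells (chr8:46471037-46536051, plus strand), was the member with the smallest p-value without stimulation. Its normalized counts were 722, 580 and 511 in vector, 166, 212 and 166 in tSema4B, 771, 773 and 541 in vector NE and 267, 416 and 264 in tSema4B NE. Every tSema4B library was below every vector library in each condition. The log2 fold change was -1.73 ± 0.17 (SE, n = 3 and 3, adjusted p = 2.48e-07), or 3.31-fold lower, without stimulation and -1.15 ± 0.17 (adjusted p = 5.15e-05), or 2.22-fold lower, after NE. Acsl1 shares 1039 exon bases with Gm45244 on the other strand, and reads from the shared part cannot be told apart in libraries that do not keep the strand. Acsl5, another synthetase of mitochondrial and endoplasmic reticulum membranes, had 367, 335 and 276 normalized counts in vector, 249, 374 and 174 in tSema4B, 382, 398 and 314 in vector NE and 235, 214 and 318 in tSema4B NE. Its groups overlapped in both conditions, with log2 fold changes of -0.35 (adjusted p = 0.288) and -0.53 (adjusted p = 0.0699). It passed without tSema4B replicate 2 in the unstimulated comparison (-0.63, adjusted p = 0.0309) and without tSema4B NE replicate 3 in the other (-0.69, adjusted p = 0.0296), where edgeR called it too (adjusted p = 0.0447).

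Cpt1a, the carnitine palmitoyltransferase of the outer membrane and the rate-setting step of the pathway, did not follow most of the mitochondrial members. It had 565, 566 and 512 normalized counts in vector, 604, 778 and 539 in tSema4B, 657, 596 and 598 in vector NE and 598, 688 and 847 in tSema4B NE. The groups overlapped in both conditions, and the log2 fold changes against vector were 0.21 ± 0.13 (adjusted p = 0.327) and 0.19 ± 0.13 (adjusted p = 0.323). Cpt1b, the muscle form that brown fat of mice also uses, was at 0 or 1 read in each unstimulated vector library and at 0 in every other library, failed the filter on low values and was not tested. The annotation gives 2744 of its 3372 exon bases to an overlapping gene model as well, so that reads there may have been left uncounted. Cpt2, the inner enzyme of the shuttle, had 301, 326 and 266 normalized counts in vector, 259, 200 and 209 in tSema4B, 390, 341 and 319 in vector NE and 247, 272 and 285 in tSema4B NE. It was lower in tSema4B cells in both conditions with no overlap, by -0.42 ± 0.14 (adjusted p = 0.0427) and -0.38 ± 0.14 (adjusted p = 0.0483), close to the threshold. These calls were lost without vector replicate 1 or 2 or tSema4B replicate 2 or 3 in the unstimulated comparison (adjusted p up to 0.176) and when any 1 of the 6 libraries was left out after NE (up to 0.203). Both were also lost with no filter on low values, with the same total over all genes and in reads thinned to the shallowest library, the first when only the libraries compared were fitted and the second under quantile normalization.

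The other carnitine acyltransferases act outside the CPT steps. Crat, the carnitine acetyltransferase of mitochondria and peroxisomes, had 513, 463 and 367 normalized counts in vector, 282, 300 and 274 in tSema4B, 404, 365 and 292 in vector NE and 296, 268 and 240.5 in tSema4B NE. It was lower without stimulation (-0.63 ± 0.14, adjusted p = 0.00368), while after NE the groups overlapped and the difference of -0.39 ± 0.14 did not pass (adjusted p = 0.0534). Without vector NE replicate 3 or without tSema4B NE replicate 1 it passed after NE as well (adjusted p = 0.0236 and 0.0401), as it did in edgeR and DESeq2 (adjusted p = 0.0371 and 0.0386). Crot, the carnitine octanoyltransferase through which chain-shortened products leave the peroxisome, had 495, 494 and 459 normalized counts in vector, 547, 452 and 575 in tSema4B, 335, 334 and 357 in vector NE and 459, 458 and 521 in tSema4B NE. The groups overlapped without stimulation (0.11 ± 0.11, adjusted p = 0.571), whereas after NE all tSema4B libraries were above all vector libraries (0.48 ± 0.11, adjusted p = 0.00315). Whether the 2 conditions differ was tested as an interaction, given below, and did not pass.

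The acyl-CoA dehydrogenases carry out the first oxidation inside mitochondria, each on its own range of chain lengths. Acadvl and Acadl, for very long and long chains, were lower in tSema4B cells in both conditions, Acadvl by -0.74 ± 0.14 (adjusted p = 5.80e-04) and -0.54 ± 0.14 (adjusted p = 0.00675) and Acadl by -0.57 ± 0.093 (adjusted p = 1.54e-04) and -0.69 ± 0.093 (adjusted p = 1.18e-05). Acadvl shares 1151 exon bases with Dvl2 on the other strand. Acadm, for medium chains, was lower without stimulation (717 ± 36.1 normalized counts in vector and 572 ± 65.6 in tSema4B, SD, n = 3; log2 fold change -0.33 ± 0.10 SE, adjusted p = 0.0323) and did not pass after NE (-0.23 ± 0.10, adjusted p = 0.116). The Acadm call was lost without vector replicate 1 or 2 or tSema4B replicate 2 or 3 (adjusted p up to 0.131), and also with no filter, the same total over all genes, quantile normalization, thinned reads or only the libraries compared. Acads, for short chains, had 249 ± 7.69 normalized counts in vector and 186 ± 27.0 in tSema4B and did not pass in either condition (adjusted p = 0.0992 and 0.113), although without tSema4B NE replicate 3 it passed after NE (adjusted p = 0.0251) and with the same total of nuclear genes it passed without stimulation (adjusted p = 0.0397). Acad10 and Acad11, 2 less studied relatives, averaged 22.1 and 61.5 normalized counts in vector, and their groups overlapped in both conditions (adjusted p from 0.396 to 0.613).

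The electron transfer flavoprotein takes up the electrons of these dehydrogenases and hands them to its ubiquinone oxidoreductase. Etfa, the α subunit (chr9:55454508-55512243, minus strand), was the most abundant member per kilobase of transcript in vector cells. It had 1332, 1375 and 1122 normalized counts in vector, 700, 602 and 757 in tSema4B, 1181, 1276 and 1235 in vector NE and 641, 637 and 558 in tSema4B NE. The groups were far apart in both conditions, with log2 fold changes of -0.90 ± 0.10 (adjusted p = 1.50e-06) and -1.01 ± 0.10 (adjusted p = 2.88e-07), the latter the smallest p-value of any member after NE. Etfdh, the oxidoreductase, was lower by -0.38 ± 0.11 (adjusted p = 0.0284) and -0.50 ± 0.11 (adjusted p = 0.00277). The first of these was lost without vector replicate 2 or tSema4B replicate 1 (adjusted p = 0.198 and 0.140), with no filter and with only the libraries compared. Etfb, the β subunit, had only 26 to 140 reads in any library, did not pass without stimulation (-0.36 ± 0.25, adjusted p = 0.397) and was lower after NE (-0.72 ± 0.25, adjusted p = 0.0413). That call was lost without vector NE replicate 2 or 3 or tSema4B NE replicate 1 or 3 (adjusted p up to 0.182), and with no filter, the same total over all genes, thinned reads or only the libraries compared. Etfb shares 617 exon bases with the gene model Gm45233.

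**Figure D2:**
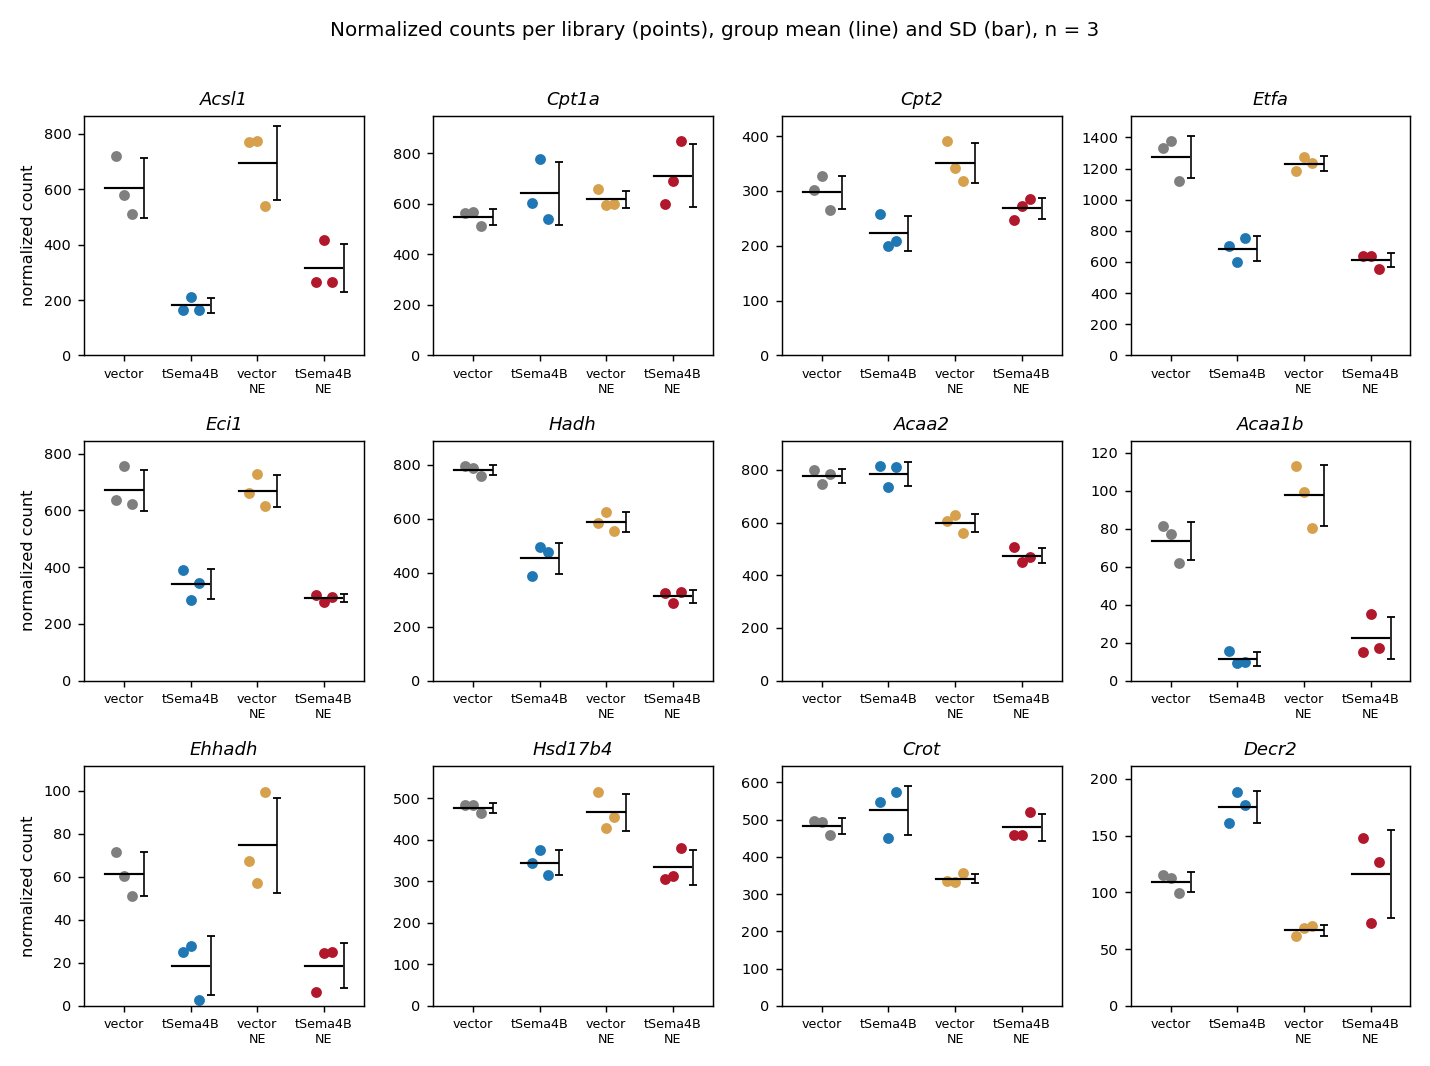
Normalized counts (y axis, from 0) of 12 members in each of the 12 libraries (points), with the group mean as a line and the SD as a bar, n = 3. Acsl1, Etfa, Eci1, Hadh, Acaa1b, Ehhadh and Hsd17b4 show tSema4B libraries below vector libraries in both conditions, Cpt1a overlaps between the lines in both conditions, and Decr2 lies above.

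The next steps of the mitochondrial cycle are hydration, a second oxidation and thiolysis. Hadha and Hadhb, which together form the trifunctional protein for long chains, were lower in both conditions, Hadha by -0.60 ± 0.11 (adjusted p = 4.38e-04) and -0.43 ± 0.11 (adjusted p = 0.00677) and Hadhb by -0.60 ± 0.18 (adjusted p = 0.0258) and -0.65 ± 0.18 (adjusted p = 0.0104). The Hadhb calls were lost without vector replicate 1 or tSema4B replicate 2 (adjusted p up to 0.143) and without tSema4B NE replicate 3 (adjusted p = 0.0628). Echs1, the short-chain enoyl-CoA hydratase, fell from 363 ± 64.1 to 185 ± 20.6 normalized counts (SD, n = 3; log2 fold change -0.96 ± 0.16, adjusted p = 2.10e-04) and, after NE, from 376 ± 54.1 to 204 ± 36.8 (-0.89 ± 0.16, adjusted p = 3.87e-04). Hadh, the 3-hydroxyacyl-CoA dehydrogenase for shorter chains (chr3:131233419-131272101, minus strand), had 794, 788 and 760 normalized counts in vector, 389, 495 and 478 in tSema4B, 583, 626 and 555 in vector NE and 324, 286 and 329 in tSema4B NE. The 4 groups did not overlap in the order vector, vector NE, tSema4B, tSema4B NE. The difference between the lines was -0.79 ± 0.11 (adjusted p = 2.16e-05) and -0.91 ± 0.11 (adjusted p = 3.17e-06).

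Acaa2, the mitochondrial 3-ketoacyl-CoA thiolase, was the mitochondrial step that departed from this. Its normalized counts were 799, 747 and 783 in vector, 813, 733 and 812 in tSema4B, 606, 628 and 560 in vector NE and 506, 449 and 468 in tSema4B NE. The lines overlapped without stimulation (0.016 ± 0.094, adjusted p = 0.941), a value that turned to -0.071 when the libraries were scaled to the same total of nuclear genes. After NE Acaa2 was lower in tSema4B cells (-0.33 ± 0.094, adjusted p = 0.0140), a call lost without vector NE replicate 2 or tSema4B NE replicate 2 (adjusted p up to 0.0663) and with the same total over all genes (adjusted p = 0.0819). By level per kilobase of transcript it ranked 4 among the 32 members in vector cells and 1 in unstimulated tSema4B cells.

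Auxiliary enzymes prepare unsaturated chains for the main cycle or release the acyl group from CoA. Eci1, the mitochondrial enoyl-CoA isomerase (chr17:24426641-24439348, plus strand), had 635, 755 and 623 normalized counts in vector, 391, 285 and 345 in tSema4B, 662, 728 and 617 in vector NE and 302, 276 and 295 in tSema4B NE. It was 1.98-fold lower without stimulation (log2 fold change -0.98 ± 0.12, adjusted p = 5.11e-06) and 2.29-fold lower after NE (-1.20 ± 0.12, adjusted p = 3.30e-07), with no overlap. Eci2, a related isomerase of peroxisomes and mitochondria, did not pass (-0.10 ± 0.14 and -0.096 ± 0.14, adjusted p = 0.706 and 0.675). Decr1, the mitochondrial 2,4-dienoyl-CoA reductase, was lower without stimulation (399 ± 26.6 normalized counts in vector, 273 ± 67.9 in tSema4B, log2 fold change -0.57 ± 0.16, adjusted p = 0.0220) and overlapped after NE (-0.14 ± 0.16, adjusted p = 0.598). The Decr1 call was lost without vector replicate 1 or 3 (adjusted p = 0.0746 and 0.0761) and without tSema4B replicate 3, where the log2 fold change was -0.36 (adjusted p = 0.140), and with no filter (adjusted p = 0.0506). Acot2, a mitochondrial acyl-CoA thioesterase, overlapped in both conditions (-0.21 ± 0.22 and -0.039 ± 0.22, adjusted p = 0.613 and 0.929), and the second value turned to 0.056 with the same total over all genes. Its transcript aligned with that of the neighbouring Acot1 at 81.7% identity, and 17.1% of its 100-base stretches occur in Acot1, so reads may have been split or dropped between the genes.

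Among the 8 peroxisomal members 3 were lower and 1 was higher without stimulation, where 7.39% of all genes tested were lower and 5.64% were higher. After NE 3 were lower and 2 higher, where 11.2% of all genes were lower and 9.79% were higher. Acaa1b, a peroxisomal thiolase (chr9:119148023-119157093, minus strand), had 81.4, 77.4 and 62.1 normalized counts in vector, 15.5, 9.28 and 9.58 in tSema4B, 113, 99.6 and 80.5 in vector NE and 15.0, 35.0 and 17.2 in tSema4B NE. Those tSema4B values rest on 6 to 13 reads without stimulation and on 13 to 37 after NE. The log2 fold change was -2.61 ± 0.34 (adjusted p = 8.78e-06), or 6.10-fold lower (-1.97 with a pseudocount of 10 in place of 1), and -2.16 ± 0.34 (adjusted p = 7.48e-05), or 4.47-fold lower. Acaa1a, its more abundant relative, had 220 ± 20.7 normalized counts in vector and 177 ± 7.16 in tSema4B (-0.31 ± 0.15, adjusted p = 0.188) and 188 ± 7.75 in vector NE and 148 ± 21.5 in tSema4B NE (-0.35 ± 0.15, adjusted p = 0.0962). The tSema4B libraries were below the vector libraries for Acaa1a in both conditions, and without tSema4B NE replicate 2 the second difference passed (adjusted p = 0.0498). The transcripts of these genes are alike over 92.9% of 1637 aligned bases and share 21.6% of the 100-base stretches of Acaa1a, so that reads from the shared stretches could have been assigned to neither.

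Ehhadh, the bifunctional enzyme that handles dicarboxylic acids, had 71.7, 60.5 and 51.2 normalized counts in vector, 25.03, 27.8 and 2.74 in tSema4B, 67.2, 56.9 and 99.5 in vector NE and 6.43, 24.6 and 25.1 in tSema4B NE. All tSema4B libraries were lower, by -2.13 ± 0.58 (adjusted p = 0.0158) and -2.11 ± 0.58 (adjusted p = 0.0117), with counts as low as 2 reads. The first value was -1.46 with a pseudocount of 10 (adjusted p = 0.00519) and -1.17 without tSema4B replicate 3 (adjusted p = 0.0953), and the call was also lost without vector replicate 1 or 2 (adjusted p = 0.0674 and 0.0547) and with no filter (adjusted p = 0.0519). After NE it was lost without vector NE replicate 3 (adjusted p = 0.0633) or tSema4B NE replicate 1 (adjusted p = 0.0729). The log2 fold change after NE ran from -2.41 to -1.51 without 1 library. Hsd17b4, the bifunctional enzyme for very long and branched chains, was lower by -0.47 ± 0.12 (adjusted p = 0.00952) and -0.48 ± 0.12 (adjusted p = 0.00527), from 477 ± 11.8 to 345 ± 30.5 normalized counts without stimulation.

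Decr2, the peroxisomal 2,4-dienoyl-CoA reductase, was the member that was higher in both conditions. It had 115, 113 and 99.1 normalized counts in vector, 161, 189 and 177 in tSema4B, 61.1, 68.2 and 70.1 in vector NE and 148, 72.9 and 127 in tSema4B NE. All tSema4B libraries were above all vector libraries, by 0.68 ± 0.22 (adjusted p = 0.0395) and 0.73 ± 0.22 (adjusted p = 0.0180). The first call was lost when any 1 of the 6 libraries was left out (adjusted p up to 0.122), with no filter and with the same total of nuclear genes, and the second without vector NE replicate 1 or tSema4B NE replicate 1 or 3 (adjusted p up to 0.106). Abcd3, the transporter that brings acyl-CoA into peroxisomes, had 747, 605 and 562 normalized counts in vector, 567, 596 and 554 in tSema4B, 545, 474 and 492 in vector NE and 547, 571 and 678 in tSema4B NE. It did not pass (-0.15 ± 0.11 and 0.25 ± 0.11, adjusted p = 0.461 and 0.139), although after NE its tSema4B libraries lay above the vector libraries and it passed with the same total over all genes (adjusted p = 0.0365). Acox3, an acyl-CoA oxidase for branched chains, had 119.5, 82.4 and 78.4 normalized counts in vector, 89.4, 109.8 and 143.8 in tSema4B, 73.2, 87.1 and 59.6 in vector NE and 79.4, 86.2 and 59.5 in tSema4B NE. Its groups overlapped in both conditions (0.29 ± 0.24 and 0.032 ± 0.24, adjusted p = 0.487 and 0.946), and the second value turned to -0.019 with the same total of nuclear genes.

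Set side by side, 12 of 18 mitochondrial members tested were lower and 0 were higher in tSema4B cells in each condition, with medians of -0.52 and -0.52, and the peroxisomal members had medians of -0.23 and -0.16. Over all genes tested, 7.39% were lower and 5.64% higher without stimulation, and 11.2% were lower and 9.79% higher after NE. At an unadjusted p under 0.05, 13 and 14 mitochondrial members differed in either direction, as did 5 and 7 of the 8 peroxisomal members, where 26.1% and 32.9% of all genes did. The summed level of the mitochondrial members, in normalized counts per kilobase of transcript, was 5094 ± 284 in vector and 3456 ± 137 in tSema4B (SD, n = 3), and 4746 ± 250 in vector NE and 3034 ± 105 in tSema4B NE. The sum of the peroxisomal members was 783 ± 46.3 in vector, 689 ± 6.54 in tSema4B, 670 ± 32.7 in vector NE and 630 ± 46.6 in tSema4B NE. The mitochondrial sum was 6.42 to 6.60 times the peroxisomal sum in vector, 4.78 to 5.21 times in tSema4B, 6.63 to 7.80 times in vector NE and 4.31 to 5.30 times in tSema4B NE. The ratios of the lines did not overlap in either condition. The sums and ratios are given as a description and were not tested.

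**Figure D3:**
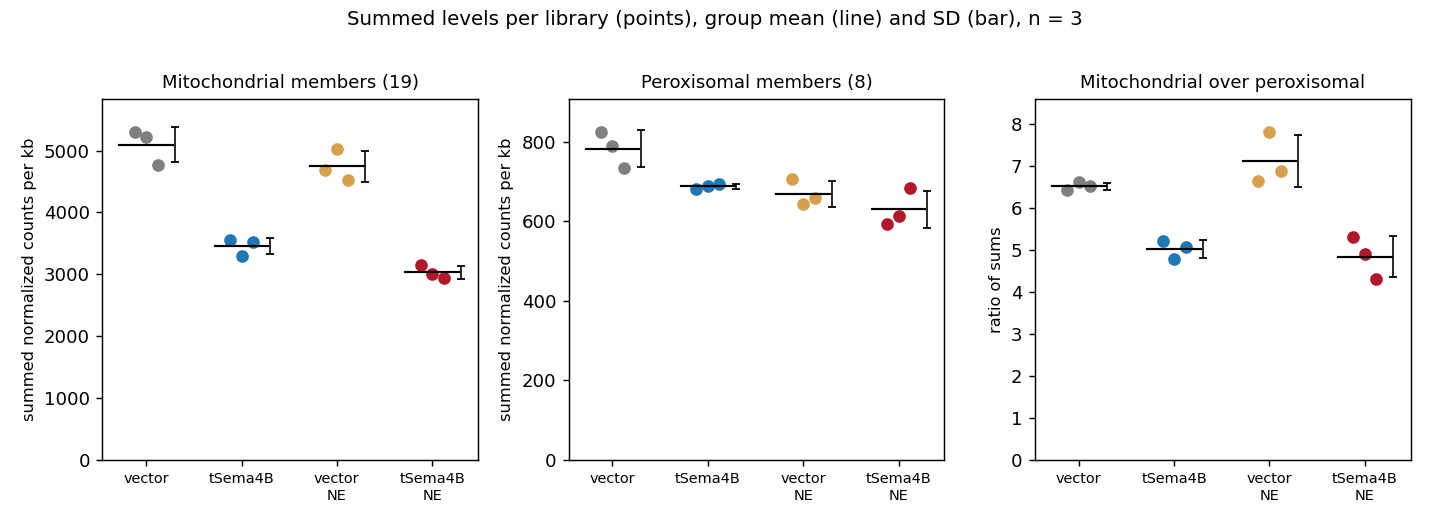
Summed normalized counts per kilobase of principal transcript for the mitochondrial members (left) and the peroxisomal members (middle), and their ratio (right), per library (points) with the group mean as a line and the SD as a bar, n = 3. The ratio lies between 4.31 and 5.30 in all tSema4B libraries and between 6.42 and 7.80 in all vector libraries.

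The comparison of NE with no stimulation asks how a 6 h adrenergic stimulus changes the same genes within each line. In vector cells 0 of 31 members were higher and 4 were lower (Hadh, Acaa2, Crot and Decr2), where 6.82% of all genes tested were higher and 4.78% were lower. That count of lower members was 1 to 4 without 1 library and 7 when only the libraries compared were fitted. In tSema4B cells 1 was higher (Acsl1) and 2 were lower (Hadh and Acaa2), where 3.68% of all genes were higher and 2.58% were lower. At an unadjusted p under 0.05, 9 members differed in vector cells (23.9% of all genes) and 7 in tSema4B cells (19.9%). At the 2-fold size 0 members passed in either line, where 1.66% of all genes were higher and 0.975% lower in vector cells and 1.31% were higher and 0.758% lower in tSema4B cells. The medians of the members were -0.13 and -0.094, against -0.019 and -0.0048 over all genes. The NE libraries lay below the unstimulated ones for 9 members in vector cells (15.7% of all genes) and 4 in tSema4B cells (9.64%), and above them for 1 in each (17.6% and 11.0%).

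Acaa2 had the smallest p-value of the members under NE in tSema4B cells, where it fell by 0.73 on the log2 scale (SE 0.094, adjusted p = 2.87e-05), and it fell by 0.38 in vector cells (adjusted p = 0.0108). Hadh fell by 0.41 in vector cells (SE 0.11, adjusted p = 0.0168) and by 0.53 in tSema4B cells (adjusted p = 0.00396). The vector calls were lost for Acaa2 without vector replicate 1 or vector NE replicate 3 (adjusted p up to 0.0709) and for Hadh without vector replicate 1 or 2 or vector NE replicate 1 or 3 (up to 0.0883). Crot, the peroxisomal carnitine octanoyltransferase, fell by 0.50 in vector cells (SE 0.11, adjusted p = 0.00492) and was at -0.13 in tSema4B cells (adjusted p = 0.588). Decr2 fell by 0.70 in vector cells (SE 0.22, adjusted p = 0.0365), a call lost when any 1 of the 6 libraries was left out (adjusted p up to 0.119), with no filter and in thinned reads, and was at -0.65 in tSema4B cells (adjusted p = 0.0783). Without tSema4B NE replicate 1, Decr2 passed in tSema4B cells too (-0.86, adjusted p = 0.0257). Acsl1 rose by 0.77 ± 0.17 in tSema4B cells (adjusted p = 0.00783) and was at 0.20 in vector cells (adjusted p = 0.548). Without tSema4B NE replicate 2, the highest library of its group, the rise was 0.56 and did not pass (adjusted p = 0.0619). Cpt1a was at 0.17 and 0.15 (adjusted p = 0.458 and 0.564) and Cpt2 at 0.23 and 0.27 (adjusted p = 0.314 and 0.267) in vector and tSema4B cells.

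**Figure D4:**
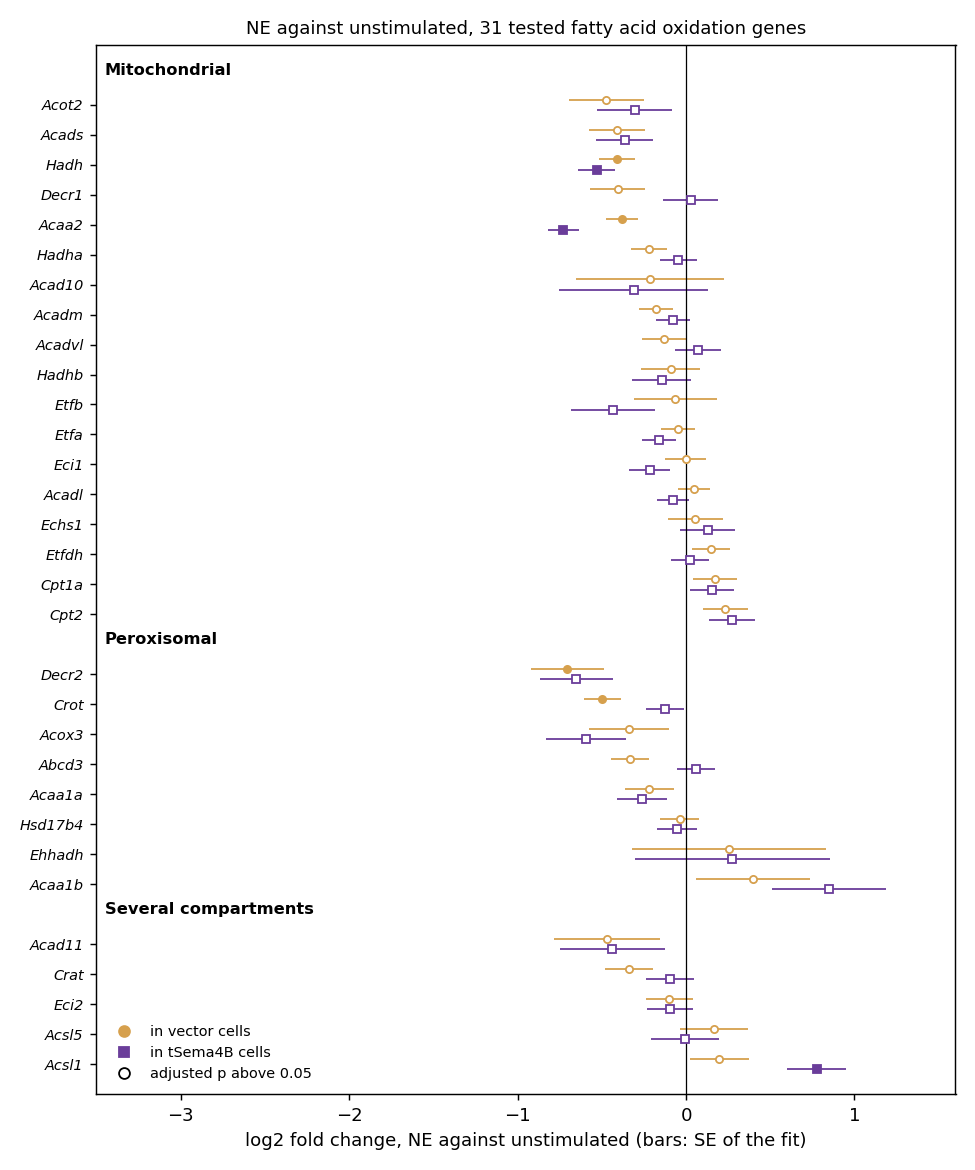
Log2 fold change of each tested member in NE against unstimulated cells (x axis), in vector cells (circles) and tSema4B cells (squares), grouped by organelle, with the SE of the fit as bars and open symbols where the adjusted p was above 0.05. Filled symbols are Hadh and Acaa2 in both lines, Crot and Decr2 in vector cells and Acsl1 in tSema4B cells.

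The interaction tested whether the difference between the lines changed with NE. It was called for 0 of the 31 members in limma and for 0 in edgeR and DESeq2, and for 0.0250% of all genes upwards and 0.00% downwards. At an unadjusted p under 0.05 there were 4 members, where 10.2% of all genes reached that level, and they are named here after their values were seen. They were Acaa2 (-0.35 ± 0.13, adjusted p = 0.346), Abcd3 (0.39 ± 0.16, adjusted p = 0.397), Crot (0.37 ± 0.16, adjusted p = 0.401) and Acsl1 (0.58 ± 0.25, adjusted p = 0.403).

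Other genes of the pathway were read from a list of 50 further genes, of which 39 were tested. In tSema4B against vector 10 were lower and 1 higher without stimulation, where 7.39% of all genes tested were lower and 5.64% higher. After NE 13 were lower and 2 higher, where 11.2% of all genes were lower and 9.79% higher. The medians of the list were -0.33 and -0.36. Ech1, the dienoyl-CoA isomerase shared by both organelles, was lower by -1.08 and -0.95 (adjusted p = 1.03e-07 and 6.88e-07). Scp2, which holds a peroxisomal thiolase, was lower in tSema4B cells by -0.89 and -0.88 (adjusted p = 2.09e-06 and 2.42e-06) and higher under NE in both lines, by 0.57 and 0.58 (adjusted p = 8.91e-04 and 0.00106). Cpt1c, a CPT1 relative known from neurons, was higher by 0.96 and 1.00 (adjusted p = 0.00306 and 0.00150), at 127 ± 13.8 normalized counts in tSema4B against 65.6 ± 13.8 in vector (SD, n = 3).

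Transcription factors, coregulators and marker genes of oxidative brown fat formed a list of 20, of which 17 were tested. In tSema4B cells 8 were lower and 0 higher without stimulation (7.39% and 5.64% of all genes tested). After NE 6 were lower and 0 higher (11.2% and 9.79%). Pparg, the nuclear receptor that drives fat cell differentiation, was lower by -1.84 and -1.56 (adjusted p = 2.75e-07 and 3.06e-06), and it also counts among the adipocyte markers below. Pdk4, a kinase that turns off pyruvate oxidation and a known PPAR target, was lower by -1.33 and -1.39 (adjusted p = 1.66e-08 and 7.69e-09). Nrf1, a regulator of mitochondrial genes, was lower without stimulation (-0.74, adjusted p = 0.00789) and did not pass after NE (-0.45, adjusted p = 0.0802). Of the 17 tested, 9 did not pass without stimulation and 11 did not pass after NE. Ppargc1a was among these in both conditions, at 0.41 and 0.36 (adjusted p = 0.682 and 0.682).

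Other genes of each organelle were counted beside the enzymes. Over all genes tested, 7.39% were lower and 5.64% higher in tSema4B cells without stimulation, and 11.2% were lower and 9.79% higher after NE. Of 20 genes of mitochondrial import, chaperones and structure, 10 were lower and 0 higher without stimulation and 13 lower and 0 higher after NE, with medians of -0.48 and -0.57. Citrate synthase, Cs, was lower by -1.09 and -0.60 (adjusted p = 7.23e-09 and 2.89e-05), Immt, which organizes the inner membrane, by -0.82 and -0.56 (adjusted p = 6.75e-05 and 0.00277), and the chaperone Hspa9 by -0.56 and -0.59 (adjusted p = 9.15e-05 and 4.15e-05). Under NE 7 of these 20 rose and 1 fell in vector cells, where 6.82% of all genes were higher and 4.78% lower. In tSema4B cells 3 rose and 0 fell, where 3.68% of all genes were higher and 2.58% lower. Hspa9 rose by 0.46 in vector cells and 0.43 in tSema4B cells (adjusted p = 0.00146 and 0.00378). Of 20 genes of peroxisome assembly and membranes, catalase included, 5 were lower and 0 higher without stimulation and 7 lower and 0 higher after NE, with medians of -0.34 and -0.21. Cat was lower by -1.45 and -1.19 (adjusted p = 5.94e-11 and 1.11e-09), Pex11a, a factor of peroxisome division, by -1.47 and -1.23 (adjusted p = 3.19e-05 and 2.08e-04) and Pex19, an import chaperone for membrane proteins, by -0.51 and -0.39 (adjusted p = 6.69e-04 and 0.00548).

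Markers of the cells themselves moved with the lines. As a share of all genes tested, 7.39% were lower and 5.64% higher in tSema4B cells without stimulation. The shares after NE were 11.2% and 9.79%. All 13 adipocyte markers were lower in tSema4B cells in both conditions, with medians of -2.49 and -1.57, and their summed normalized counts were 43620 to 50220 in vector, 7622 to 10365 in tSema4B, 58549 to 70433 in vector NE and 11807 to 13367 in tSema4B NE. Of 16 preadipocyte or fibroblast markers 11 were higher without stimulation and 12 after NE, none were lower, and their sums were 38036 to 38395 in vector, 66683 to 77459 in tSema4B, 29330 to 32258 in vector NE and 58580 to 63887 in tSema4B NE. The part these markers have in the differences of the fatty acid oxidation genes was not tested, and in bulk libraries fewer cells of a type and less RNA per cell cannot be told apart. Sums of 7 macrophage markers reached at most 59.6 normalized counts in any library, those of 6 endothelial markers at most 23.3 and those of 10 skeletal muscle markers at most 41.7. Adgre1 and Ptprc of macrophages, Kdr of endothelium and Myod1, Myog and Ckm of muscle had 0 reads in every library. Of the macrophage markers 2 were tested and 0 passed between the lines, of the endothelial markers 1 was tested and did not pass, and of the muscle markers 2 were tested, of which 1 was lower in both conditions. Under NE 6.82% of all genes tested were higher and 4.78% lower in vector cells, and 3.68% were higher and 2.58% lower in tSema4B cells. Both macrophage markers tested were higher under NE in vector cells and 1 of them in tSema4B cells. Of the 16 preadipocyte or fibroblast markers 8 were lower and 1 was higher under NE in each line. Of the 13 adipocyte markers 2 were higher and 2 lower under NE in vector cells and 4 were higher and 0 lower in tSema4B cells.

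**Figure D5:**
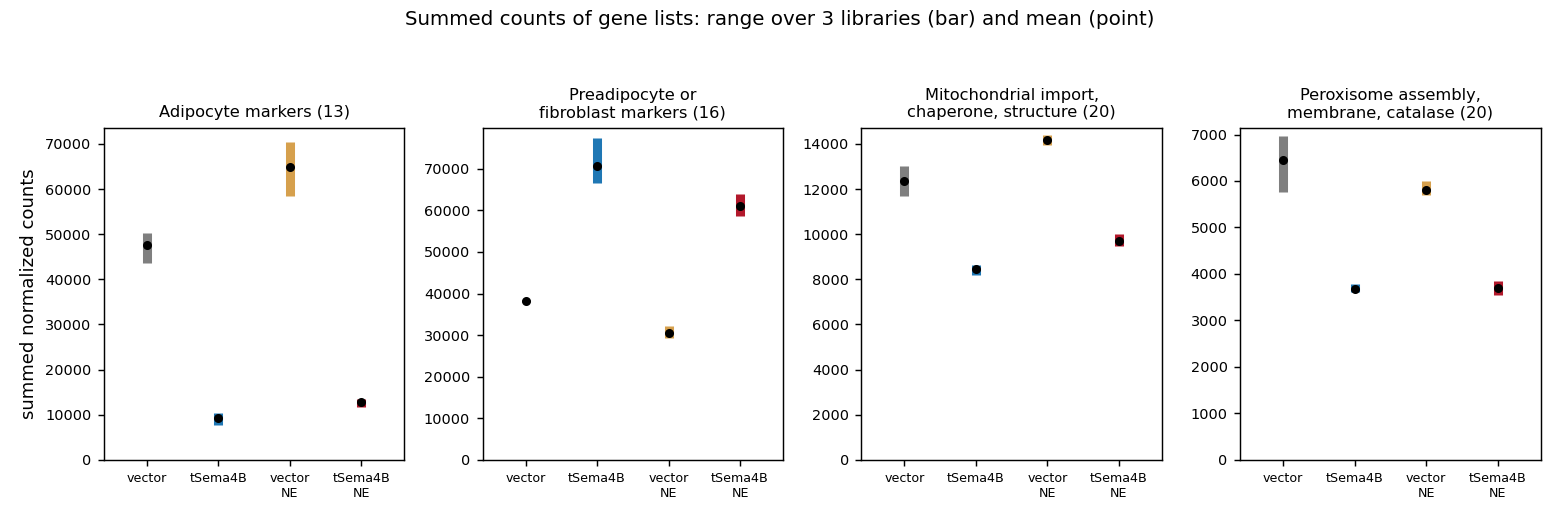
Summed normalized counts (y axis, from 0) of 4 gene lists in each group, with the range over 3 libraries as a bar and the mean as a point. The sums of the adipocyte markers, of the mitochondrial import, chaperone and structure genes and of the peroxisome assembly genes are lower in tSema4B than in vector cells in both conditions, and the preadipocyte or fibroblast sum is higher.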

How the data were processed

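After a screen for foreign reads, the authors mapped each library with STAR 2.7.9a to mm10 (GRCm38.p4), assigned reads to genes by htseq-count and scaled them by DESeq2 size factors. What the authors deposited is this scaled signal, a normalized count. In each library 100% of non-zero values were whole multiples of 1 read (tolerance 0.01), so whole reads were recovered. SMART-Seq2 libraries do not keep the strand, and the gene annotation used for counting is not given in the sources used here. Gene positions, exon overlaps and transcript lengths came from GENCODE vM21 on GRCm38.

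log2(normalized count + 1) was fitted with limma 3.58.1 (R 4.3.3), all 4 groups in 1 model, two-sided, over 11998 genes that reached 10 normalized counts in 3 or more of the 12 libraries, so fold changes understate those of low genes. Organelle sums used the principal transcript. Any 2 libraries of a group differed by more than counting noise. Depth, 2000780 to 5409583 reads, is a precision limit for low genes. All 32 members are accounted for in order of role, and values per library are given for activation and shuttle genes, the 3 smallest p-values per comparison and members that go against the rest. The members and lists were chosen with earlier results of these data known. Alternatives used edgeR 4.0.16 and DESeq2 1.42.0 on whole reads, other pseudocounts, filters and scalings, thinned reads, and left-out libraries. The script was tested on simulated data.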

Additional observations from a re-analysis of the deposited data

How the results depend on the processing

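Of 43 member calls, 26 held under every alternative other than the 2-fold requirement, 17 were lost under at least 1 and 0 turned direction, and 8 of 37 results that had not passed did so under at least 1. These 37 are all such results between the lines and those named for NE and the interaction. The other members were followed for NE only through the counts below. Requiring both thresholds left 0 higher and 3 lower members without stimulation, 0 and 5 after NE, 0 lower in vector cells under NE, and 0 higher and 0 lower in tSema4B cells under NE. With no filter, or with the same total of nuclear genes, 0 members were higher without stimulation, and with the same total over all genes 3 were higher after NE (main count 2) and 13 lower (main count 16). Fitting only the libraries compared gave 7 lower under NE in vector cells. Leaving out 1 library gave 0 higher and 12 to 16 lower without stimulation, 1 to 2 and 13 to 15 after NE, 0 and 1 to 4 under NE in vector cells, and 0 to 1 and 2 to 3 in tSema4B cells. Here, the cause was not tested. edgeR and DESeq2 gave 17 and 17 lower without stimulation and 18 and 17 after NE. Scaling moved the median of all genes by at most 0.0935.

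Among these results, direction turned for 3 values near 0 that had not passed. Acaa2 without stimulation was -0.071 with the same nuclear total, -0.0082 in thinned reads and -0.011 to 0.065 without 1 library. Acot2 after NE was 0.056 with the same total over all genes and -0.16 to 0.14 without 1 library. Acox3 after NE was -0.019 with the same nuclear total, -0.029 in thinned reads and -0.11 to 0.19 without 1 library. Of 27 calls named for genes outside the members 0 were lost under the alternatives run.

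Same-numbered libraries did not deviate together (correlations -0.047 to 0.028 over 18 pairs, 0 above 0.1), so the numbers do not pair the libraries. With the replicate block 1 member was higher and 16 lower without stimulation, 2 and 15 after NE, 0 and 4 under NE in vector cells, 1 and 2 in tSema4B cells, and 0 for the interaction. The block lost the call of Cpt2 between the lines in both conditions and that of Etfb after NE, and Crat passed after NE.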
